A study of Homo sapiens with 2 samples.

Results

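The genes described here are 35 genes of homologous recombination and the Fanconi anemia pathway. They were listed by name, with earlier results of these data known, and all 35 were found in a table of 57736 Ensembl genes. RNA was sequenced from A1847 cells, a human epithelial ovarian cancer line, in 1 library of parental control cells (genotype CARM1 wild type) and 1 library of CARM1 knockout (CARM1 KO) cells. The knockout was made with a lentiviral CRISPR vector carrying a guide RNA against CARM1, an arginine methyltransferase, and is a single clone, so what belongs to the clone and what to the loss of CARM1 cannot be told apart. The labels name no drug for either group, and both were grown in the same medium with fetal bovine serum.

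Homologous recombination repairs a broken chromosome by copying the intact sister. The MRE11-RAD50-NBN complex senses the end, nucleases and helicases cut back a strand, BRCA1 and BARD1 with PALB2 and BRCA2 place the recombinase on the exposed strand, and its paralogs steady the filament. TP53BP1 and RIF1 limit the cutting back and so favor direct joining of ends. The Fanconi anemia core complex attaches ubiquitin to FANCD2 and FANCI at DNA crosslinks, through its ligase subunit FANCL, and ATM, ATR, CHEK1 and CHEK2 relay the damage signal to the cell cycle. In high-grade serous ovarian cancer, loss of BRCA1 or BRCA2 is a known route to sensitivity to platinum and PARP inhibitors.

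Reads counted to genes came to 30741953 in parental and 32300391 in CARM1 KO cells. CARM1 itself was counted 975 times in parental and 380 times in KO cells, 2.63-fold lower after scaling (95% interval 2.33 to 2.97). These are reads of RNA and do not measure the protein. The paper examined CARM1 protein in the knockout by immunoblot and reports a decrease in methylated BAF155, a substrate of CARM1. Of 8 ovarian carcinoma and epithelial markers, the keratin genes KRT8 (17600 and 70370 reads) and KRT18 (21154 and 51223) were abundant in both libraries. PAX8, a marker of ovarian carcinoma, had 311 and 1149 reads. EPCAM had 848 reads in KO cells and fewer in parental cells, and CDH1 had 3 and 53, whereas KRT19 had 45 and 0, WT1 8 and 1, and the ovarian cancer antigen MUC16 0 and 1. Of the fibroblast markers, PDGFRA had 14326 reads in parental and 2 in KO cells, LUM 61 and 1, DCN 24 and 0, and COL1A1 131 and 537, so 3 of the 4 were lower and 1 higher in KO cells. The blood markers and the endothelial marker CDH5 had at most 13 reads each. The part of these marker differences in the values below was not tested. With 1 library per group there is no replicate check and no p-value is given. Fold changes are ratios of counts scaled by TMM (a trimmed-mean scaling of library size), and intervals are exact binomial ones that take in counting error alone. Levels are given in CPM, reads scaled by TMM to a common library size.

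All 35 genes were measured well above the filter of 10 reads in both libraries together. Reads ranged from 141 to 11903 in parental and from 277 to 8571 in KO cells. Of the 35, 3 were more than 1.5-fold higher in KO cells, where 28.0% of the 18563 genes past the filter were, and 8 were more than 1.5-fold lower, where again 28.0% of genes were. At the 3-fold threshold used in the study, 0 of 35 were higher against 11.6% of all genes, and 0 of 35 were lower against 10.4%. Among the 9603 protein-coding genes with at least 418 reads, the total of the lowest member, the shares were smaller, at 22.6% higher and 21.4% lower past 1.5-fold and 7.10% and 5.39% past 3-fold. The remaining 24 genes, or 68.6%, lay within 1.5-fold, as did 44.1% of all genes and 56.0% of those 9603 genes. The median log2 fold change of the 35 was -0.02, that of all genes -0.02. The higher count was thus below both background shares, and the lower count was near them. Counting error left 2 of the 3 higher genes and 6 of the 8 lower genes with the whole interval beyond 1.5-fold, and 7 of 35 intervals spanned no difference.

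**Figure D1:**
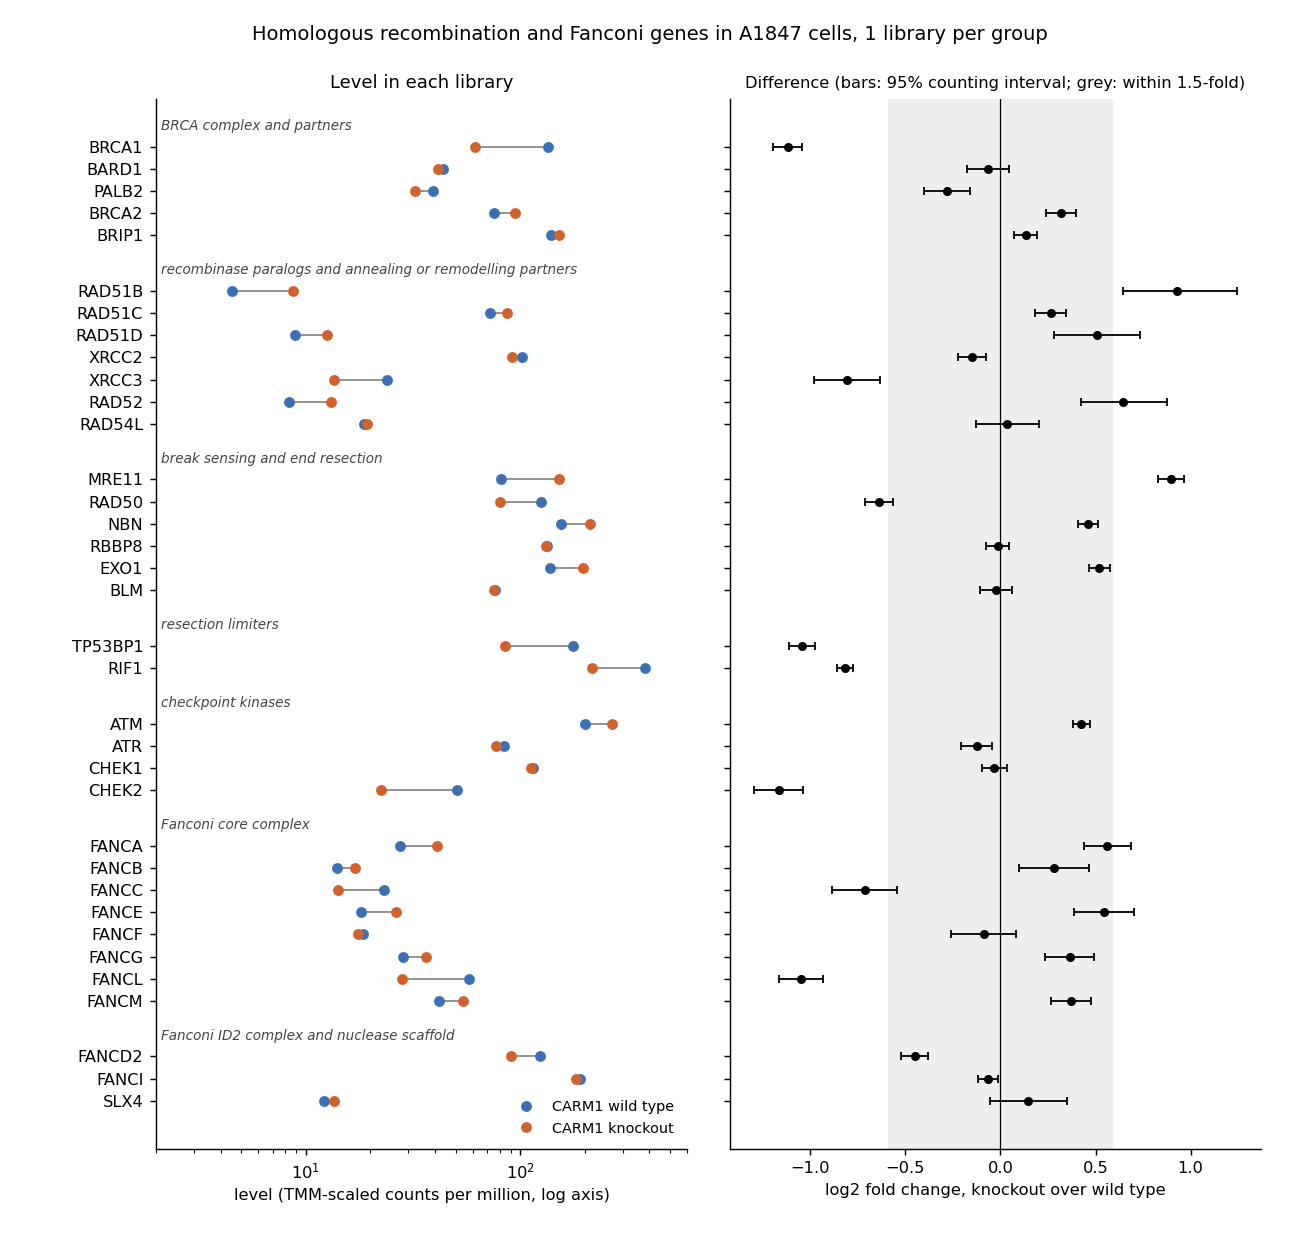
The left panel plots the level of each of the 35 genes as TMM-scaled CPM on a log axis, blue for parental and orange for CARM1 KO cells. The right panel plots the log2 fold change, KO over parental, with its 95% counting interval and a grey band for differences within 1.5-fold. CHEK2, BRCA1, FANCL and TP53BP1 sit near -1.1, and RAD51B and MRE11 sit near 0.9.

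The promoters shown here are those of the 4 members past 1.5-fold that share a start region with a gene on the opposite strand. BRCA1 and the long non-coding RNA gene NBR2 start 187 bp apart, MRE11 and ANKRD49 140 bp apart, CHEK2 and HSCB 219 bp apart, and XRCC3 and ZFYVE21 359 bp apart, by the canonical transcripts of GENCODE on GRCh37. Each window is from RefSeq on GRCh38.p14 and runs from 250 bases before to 50 bases after the start of the member, 5′ to 3′ on its own strand. Capitals mark the CCAAT box, searched as CCAAT on both strands.
BRCA1 (chr17:43125315-43125614, minus strand): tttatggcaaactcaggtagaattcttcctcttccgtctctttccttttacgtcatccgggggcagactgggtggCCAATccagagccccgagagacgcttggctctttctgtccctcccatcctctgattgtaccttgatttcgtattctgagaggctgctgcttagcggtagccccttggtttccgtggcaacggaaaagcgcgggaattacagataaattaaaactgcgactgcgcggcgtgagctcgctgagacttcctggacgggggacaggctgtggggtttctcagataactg
MRE11 (chr11:94493795-94494094, minus strand): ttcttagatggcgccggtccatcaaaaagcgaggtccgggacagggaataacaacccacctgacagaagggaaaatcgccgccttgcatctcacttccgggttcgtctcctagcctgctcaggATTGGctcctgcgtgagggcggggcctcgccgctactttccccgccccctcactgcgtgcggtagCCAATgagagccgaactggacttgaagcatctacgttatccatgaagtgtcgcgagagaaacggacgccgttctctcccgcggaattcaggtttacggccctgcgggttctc
CHEK2 (chr22:28741771-28742070, minus strand): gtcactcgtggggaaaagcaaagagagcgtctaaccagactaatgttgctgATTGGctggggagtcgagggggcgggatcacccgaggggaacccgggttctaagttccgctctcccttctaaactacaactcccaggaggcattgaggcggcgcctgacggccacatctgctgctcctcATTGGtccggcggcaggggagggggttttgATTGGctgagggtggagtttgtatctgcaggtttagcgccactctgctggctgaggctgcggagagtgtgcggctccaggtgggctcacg
XRCC3 (chr14:103715402-103715701, minus strand): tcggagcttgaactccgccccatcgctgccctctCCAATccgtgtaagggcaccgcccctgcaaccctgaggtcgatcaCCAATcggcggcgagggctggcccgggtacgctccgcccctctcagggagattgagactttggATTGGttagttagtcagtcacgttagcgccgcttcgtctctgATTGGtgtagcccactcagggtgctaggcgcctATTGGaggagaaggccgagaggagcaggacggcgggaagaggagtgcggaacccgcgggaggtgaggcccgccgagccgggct

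RefSeq gives BRCA1 a pair of windows, and the printed one lies at the start of its canonical transcript. It holds 1 CCAAT box, which begins at position -175 from the start, and the NBR2 start lies inside it. The other BRCA1 window, chr17:43170278-43170577, holds 0 of the motifs searched. MRE11 holds 2, CHEK2 holds 3 and XRCC3 holds 5. A window was found for 33 of the 35 members, and 15 of these (45.5%) held a CCAAT box in at least 1 of their windows, against 42.5% of 15318 protein-coding genes. An E2F site, searched as TTTCCCGC, TTTCGCGC, TTTGCCGC or TTTGGCGC on both strands, was found for EXO1, FANCA, FANCC, FANCD2 and XRCC2, 15.2% of those with a window, against 5.47% of protein-coding genes. The cell cycle homology element, searched as TTTGAA on both strands, was found for ATM, BRIP1, FANCC and RIF1, 12.1% against 15.9%. The median log2 fold change was -0.15 for the members with an E2F site and 0.01 for those without, and the 5 genes with a site lay on both sides of 0. For the CCAAT box the medians were -0.03 with and 0.21 without. For the cell cycle homology element they were -0.29 with and -0.02 without. A match of letters is a description of the window and not a bound site.

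BRCA1 stood apart from its partners. BRCA1, a ubiquitin ligase and scaffold of end resection, lies on chromosome 17 from 41196312 to 41322262 of GRCh37 on the minus strand and had 4168 reads in parental and 1965 in KO cells, or 134 and 61.6 CPM. KO cells held less of it, a 2.17-fold difference (95% interval 2.06 to 2.29). BARD1, its obligate partner in the ligase, had 1350 and 1320 reads, 43.3 and 41.4 CPM, with an interval that spanned no difference. The level of BRCA1 thus differed between the libraries beyond counting error and that of BARD1 did not. PALB2, which bridges BRCA1 to BRCA2, had 1223 and 1030 reads and was 1.22-fold lower in KO cells (95% interval 1.12 to 1.32). BRCA2, which delivers the recombinase, went the other way, with 2343 reads in parental and 2995 in KO cells and a ratio of 1.25 (95% interval 1.18 to 1.32). BRIP1, a helicase that binds BRCA1, had 4311 and 4841 reads and a ratio of 1.10 (95% interval 1.05 to 1.14). Of these 5 genes, BRCA1 (20%) was past 1.5-fold lower and the other 4 were within 1.5-fold. That share was near the 28.0% of all genes and the 21.4% of the 9603 protein-coding genes with at least 418 reads.

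Among the recombinase paralogs, RAD51B had the fewest reads and the highest ratio. It had 141 reads in parental and 277 in KO cells, 4.53 and 8.69 CPM, a ratio of 1.92 (95% interval 1.56 to 2.37). RAD51C, which joins RAD51B and also XRCC3 in separate complexes, had 2244 and 2761 reads and a ratio of 1.20 (95% interval 1.14 to 1.27). RAD51D had 276 and 402 reads and a ratio of 1.42 (95% interval 1.22 to 1.66). These 3 paralogs were higher in the KO library. XRCC2, the partner of RAD51D, had 3160 and 2917 reads, a level 1.11-fold lower in KO cells (95% interval 1.05 to 1.17). XRCC3 had 740 reads in parental and 433 in KO cells and was 1.75-fold lower (95% interval 1.55 to 1.97). The pair of RAD51C and XRCC3, which act together, thus differed in direction. RAD52, which anneals single strands and can act where BRCA2 is missing, had 261 and 419 reads and a ratio of 1.57 (95% interval 1.34 to 1.84). RAD54L, a motor that remodels the joint molecule, had 584 and 613 reads, with an interval that spanned no difference.

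The subunits of the break sensor differed in direction. MRE11, its nuclease, lies on chromosome 11 from 94148736 to 94227051 and had 2523 reads in parental and 4807 in KO cells, 81.0 and 151 CPM. The KO level was 1.86 times the parental one (95% interval 1.77 to 1.95). RAD50, the ATPase that tethers ends, had 3907 and 2568 reads, 125 and 80.5 CPM, and was 1.56-fold lower in KO cells (95% interval 1.48 to 1.64). NBN, the subunit that recruits ATM, had 4798 and 6763 reads and a ratio of 1.38 (95% interval 1.33 to 1.43). MRE11 and NBN were thus higher and RAD50 lower in the KO library.

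Of the resection factors, RBBP8, which starts the cut with MRE11, had 4152 and 4207 reads, and its interval spanned no difference. EXO1, the nuclease of long resection, had 4273 and 6277 reads and a ratio of 1.43 (95% interval 1.38 to 1.49). BLM, the helicase of that step, had 2381 and 2399 reads, again with no difference beyond counting error. Both genes that limit resection were lower in KO cells. TP53BP1 lies on chromosome 15 from 43695259 to 43802926 and had 5465 reads in parental and 2714 in KO cells, 175 and 85.1 CPM, a level 2.06-fold lower (95% interval 1.97 to 2.16). RIF1, which TP53BP1 recruits, was the most counted member in parental cells, with 11903 reads, and had 6914 in KO cells, 1.76-fold lower (95% interval 1.71 to 1.82). In the same arm, SHLD2, a shieldin subunit that works below RIF1, had 2935 and 1660 reads and was 1.81-fold lower (95% interval 1.70 to 1.92), whereas MAD2L2, another shieldin subunit, had 737 and 1324 reads and a ratio of 1.75 (95% interval 1.60 to 1.92).

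Of the checkpoint kinases, CHEK2 differed most of all 35 genes. It lies on chromosome 22 from 29083731 to 29138410 and had 1570 reads in parental and 716 in KO cells, 50.4 and 22.5 CPM, a level 2.25-fold lower in KO cells (95% interval 2.05 to 2.46). Pseudogene copies of CHEK2 share its sequence, and the division of reads among them is uncertain. CHEK2P2 had 29 and 1 reads and CHEK2P6 had 10 and 0, few beside those of CHEK2. ATM, the kinase that activates CHEK2, had 6230 and 8571 reads and a ratio of 1.34 (95% interval 1.30 to 1.39). ATR had 2609 and 2449 reads, 1.09-fold lower in KO cells (95% interval 1.03 to 1.15). CHEK1, which ATR activates, had 3578 and 3585 reads, with an interval that spanned no difference. Levels of the ATR and CHEK1 branch were thus close in the libraries, while ATM and CHEK2 lay on opposite sides.

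In the Fanconi core complex, the catalytic subunit FANCL was lowest in KO cells relative to parental. FANCL, on chromosome 2 from 58386378 to 58468545, had 1800 and 891 reads, 57.8 and 27.9 CPM, a level 2.07-fold lower (95% interval 1.91 to 2.24). FANCB, which sits with FANCL in the same subcomplex, had 433 and 539 reads and a ratio of 1.22 (95% interval 1.07 to 1.38). FANCC, a scaffold subunit, had 718 and 448 reads and was 1.64-fold lower in KO cells (95% interval 1.46 to 1.85). FANCE, which binds FANCC and FANCD2, had 564 and 842 reads and a ratio of 1.46 (95% interval 1.31 to 1.63). FANCF had 577 and 556 reads, with an interval that spanned no difference. The contacts FANCL with FANCB and FANCC with FANCE each joined a subunit that was lower to a subunit that was higher. Other partners were on the same side, with FANCA and FANCG both higher and FANCD2 and FANCI both lower. Of all 35 members, 17 were higher and 18 lower, so pairs on opposite sides are no trait of these contacts. FAAP100, another subunit beside FANCL and FANCB, was not among the listed members. It had 508 and 270 reads and was 1.93-fold lower in KO cells (95% interval 1.66 to 2.24). In that subcomplex FANCL and FAAP100 were thus both lower and FANCB was higher.

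FANCA had 859 and 1299 reads and a ratio of 1.48 (95% interval 1.35 to 1.61), just inside 1.5-fold. FANCG, its partner, had 881 and 1161 reads and a ratio of 1.29 (95% interval 1.18 to 1.41). FANCM, the anchor on DNA, had 1307 and 1731 reads and a ratio of 1.29 (95% interval 1.20 to 1.39). Of the 8 core genes among the members, 5 were higher and 3 lower, and those past 1.5-fold, FANCL and FANCC, were both lower. These 2 (25%) were near the background shares past 1.5-fold lower. Those shares were 28.0% of all genes and 21.4% of the 9603 protein-coding genes with at least 418 reads. The substrate FANCD2 had 3832 and 2871 reads and was 1.37-fold lower in KO cells (95% interval 1.30 to 1.43). Its partner FANCI had 5898 and 5780 reads and was 1.04-fold lower (95% interval 1.01 to 1.08). SLX4, the scaffold of crosslink-cutting nucleases, had 380 and 431 reads, and its interval spanned no difference.

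Levels of different genes were compared per length, as CPM per kilobase of merged exons. On this scale EXO1 was the highest member in both libraries, at 33.2 in parental and 47.6 in KO cells, followed by RBBP8 at 26.3 and 26.0. The lowest in parental cells was RAD51B at 0.606 and the lowest in KO cells was FANCL at 0.736. The order depends on the length used, because the merged exons of FANCL span 37977 bp and its canonical transcript 1658 bp. With canonical lengths, chosen after seeing the data, RBBP8 came first in parental cells at 40.7, EXO1 first in KO cells at 57.1, FANCL came to rank 4 in parental cells at 34.9, and RAD51D last in both at 0.889 and 1.27. On the canonical scale BRCA1 held rank 12 of 35 in parental cells and rank 20 in KO cells.

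Since genes along a chromosome stretch can differ together between these libraries, each member was set beside its flanking genes, the 10 nearest protein-coding genes with at least 50 reads on each side. RAD52 and FANCA, near chromosome ends, had 16 and 17 such genes in all. The flanking medians ranged from -0.69 for PALB2 to 0.67 for MRE11 on the log2 scale. The sign of the member and of its flanking median was the same for 23 of 35 genes. This count and the correlations that follow were made for the members alone. Whether they are particular to the members was therefore not tested. Across the 35 members, Pearson's r was 0.46 and Spearman's rho 0.49, a description only, since neighbouring genes are not independent and BLM and FANCI share 4 flanking genes. The median difference between a member and its flanking genes was 0.02, and the SD of the members, 0.58, became 0.52 after the flanking median was subtracted.

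**Figure D2:**
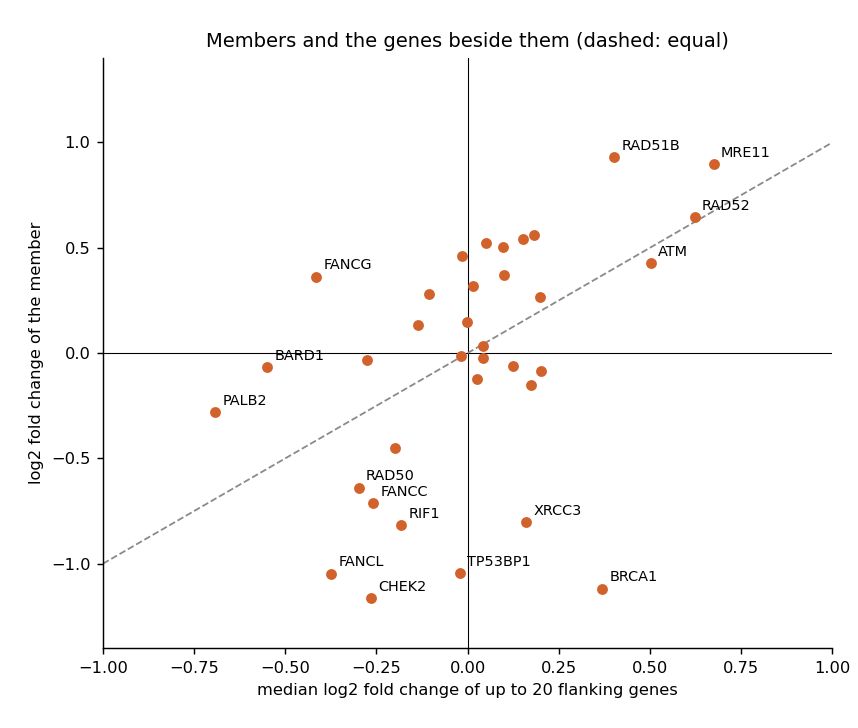
Each point is 1 of the 35 members, with the median log2 fold change of its flanking genes on the x axis and its own log2 fold change on the y axis (KO over parental), and the dashed line marks equal values. MRE11, RAD52 and ATM lie near the line at 0.67, 0.62 and 0.50 on the x axis, whereas BRCA1 and TP53BP1 lie far below it.

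MRE11 was 1 of many genes of its stretch that were higher in KO cells. Its flanking median was 0.67 and its own log2 fold change 0.90, and 17 of the 20 flanking genes were higher, 14 of them past 1.5-fold, between positions 89864683 and 95658479 of chromosome 11. ATM, further along the same arm, had a flanking median of 0.50 against its own 0.43, with 17 of 20 flanking genes higher. RAD52 on chromosome 12 had 0.62 against its own 0.64. For these 3 genes the member and its stretch were close, and the part of the stretch in the result was not tested. RAD51B, at 0.93, was above its flanking median of 0.40.

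Other members differed from their stretch. BRCA1 was 1.49 below its flanking median of 0.37 on the log2 scale, and 13 of 20 flanking genes were higher in KO cells and 7 lower. Of these, 8 were past 1.5-fold higher and 7 past 1.5-fold lower, so the stretch held large differences in both directions. TP53BP1 was 1.02 below a flanking median of -0.02, XRCC3 was 0.97 below one of 0.16, and CHEK2 was 0.90 below one of -0.26. FANCL, FANCC, RAD50 and RIF1 had flanking medians between -0.37 and -0.18 and lay below them. PALB2 stood within a stretch that was lower, with 17 of 20 flanking genes lower in KO cells, 13 of them past 1.5-fold, and was itself 0.41 above that median. FANCG was 0.78 above a flanking median of -0.41, with 14 of 20 flanking genes lower. BARD1 and NBN were each 0.48 above their flanking medians.

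**Figure D3:**
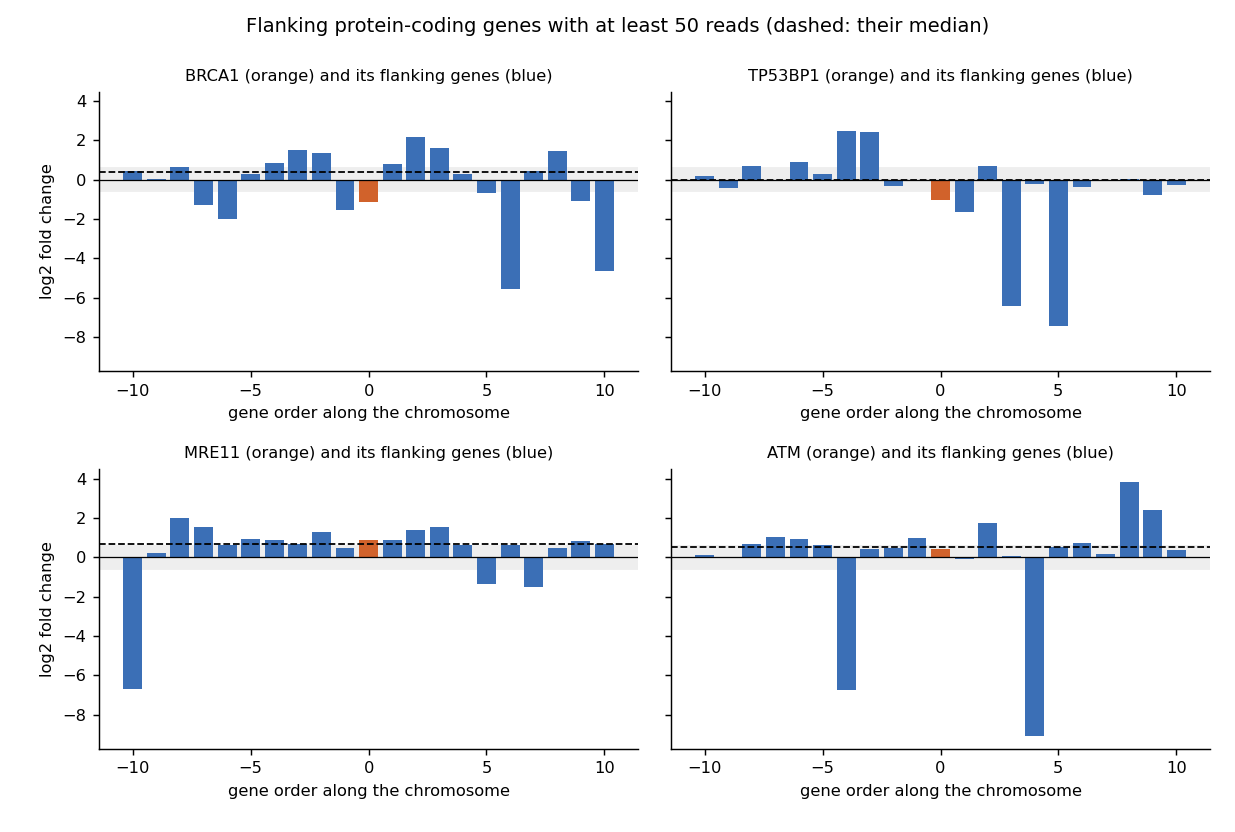
Each panel plots the log2 fold change (KO over parental) of a member in orange and of its 20 flanking protein-coding genes in blue, in gene order along the chromosome, with their median dashed and a grey band for differences within 1.5-fold. Around MRE11 and ATM 17 of 20 flanking genes are above 0, and BRCA1 and TP53BP1 lie below dashed lines at 0.37 and -0.02.

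The genes that share a start region with a member gave a closer comparison. With starts at most 1000 bp apart on opposite strands and at least 10 reads, 10 members had such a partner. The partner was on the same side of 0 as the member in 8 of the 10 pairs (80.0%), against 65.2% of all 1625 such pairs of genes. NBR2, a long non-coding RNA gene, had 134 reads in parental and 6 in KO cells, 22.9-fold lower (95% interval 10.2 to 63.4), beside the 2.17-fold of BRCA1. Both transcripts from this start region were therefore lower in KO cells, the non-coding one by more. ANKRD49 had 609 and 1150 reads, a ratio of 1.84 (95% interval 1.67 to 2.04), beside 1.86 for MRE11. The partners at this start region differed between the libraries by nearly the same factor. This was not particular to a shared start, as 14 of the 20 flanking genes of MRE11 were past 1.5-fold higher. TAF1D, a flanking gene with another start, had a log2 fold change of 0.89, beside 0.90 for MRE11. NPAT, a regulator of histone genes that starts 429 bp from ATM, had 1590 and 3261 reads and a ratio of 2.003 (95% interval 1.89 to 2.13).

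HSCB, the partner of CHEK2 and a cochaperone of iron-sulfur cluster assembly, had 250 and 197 reads and was 1.30-fold lower in KO cells (95% interval 1.07 to 1.57). ZFYVE21, the partner of XRCC3, had 745 and 620 reads and was 1.23-fold lower (95% interval 1.10 to 1.37). In both pairs the partner was on the same side as the member and within 1.5-fold. TEX14, the partner of RAD51C, had 28 and 111 reads, a ratio of 3.87 (95% interval 2.54 to 6.09). DCTN5, a dynactin subunit beside PALB2, had 3052 and 1911 reads and was 1.64-fold lower (95% interval 1.54 to 1.73). MOSPD2 beside FANCB had 218 and 342 reads. The pairs on opposite sides of 0 were BARD1 with SNHG31 and BLM with CRTC3-AS1, non-coding RNA genes with at most 30 reads in either library.

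**Figure D4:**
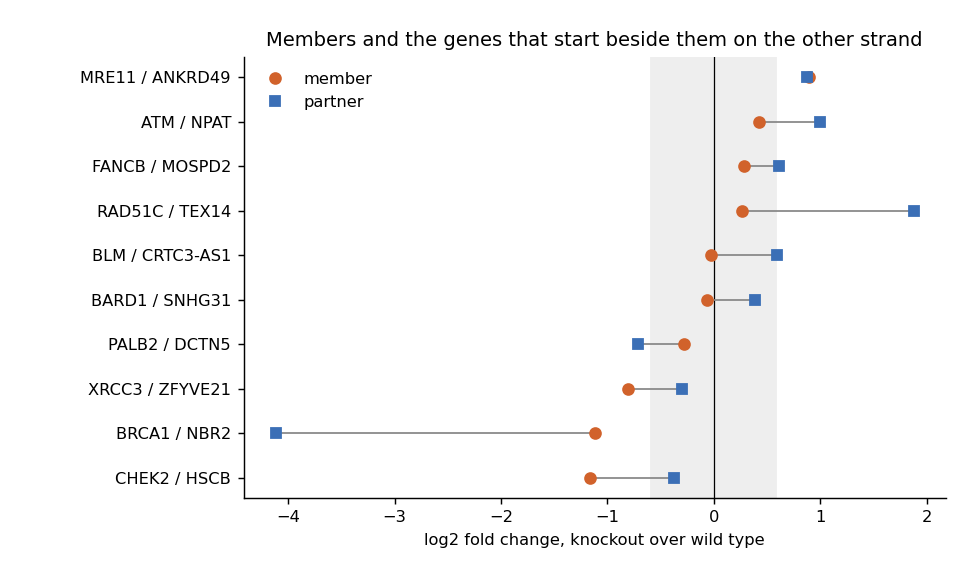
Log2 fold change (KO over parental) of 10 members, orange circles, and of the gene that starts within 1000 bp on the other strand, blue squares, with the grey band marking 1.5-fold. NBR2 lies far below BRCA1, ANKRD49 lies on top of MRE11, and 8 of 10 pairs are on the same side of 0.

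Genes that overlap a member also bear on its count, since the strand setting used in counting is not stated. NBR2 overlaps the annotated span of BRCA1 on the other strand, with the 134 and 6 reads given above. VRK2, which overlaps FANCL on the other strand, had 1608 and 1020 reads. TUBGCP4, which overlaps TP53BP1, had 635 and 641 reads, and KLC1, which overlaps XRCC3, had 3506 and 4584. LRRC41, which overlaps RAD54L, had 1651 reads in parental and 761 in KO cells, while RAD54L itself had 584 and 613. Without strand, reads of such neighbours cannot be told apart where their exons overlap. STT3A, which overlaps CHEK1 on the same strand, had 6258 and 6417 reads, more than CHEK1, and there a strand setting would not separate shared exons either.

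Related repair genes behaved much like the 35. Of 36 other recombination and crosslink repair genes, 6 (16.7%) were past 1.5-fold higher in KO cells and 5 (13.9%) past 1.5-fold lower. Both shares were below the 28.0% of all genes in each direction. In this list 0 were past 3-fold, and the median log2 fold change was -0.02. The highest ratio in this list was that of RMI1, a partner of BLM, with 183 and 361 reads, and the lowest that of SWSAP1, a small partner of the recombinase, with 108 and 44. RPA1, the single-strand binding protein, had 2354 and 4183 reads (ratio 1.74, 95% interval 1.65 to 1.83), and USP1, which removes ubiquitin from FANCD2, had 9173 and 16486 (ratio 1.76, 95% interval 1.71 to 1.80). POLQ, the polymerase of the alternative joining route, had 2629 and 2749 reads. Of 18 end joining genes, 3 (16.7%) were past 1.5-fold higher and 2 (11.1%) lower, also below the 28.0% of all genes. PAXIP1, an adaptor that binds TP53BP1, had 1697 and 910 reads and was 1.91-fold lower (95% interval 1.76 to 2.07). The core subunits XRCC5, XRCC6 and PRKDC were each within 1.5-fold but differed beyond counting error. XRCC6 was 1.49-fold lower in KO cells (95% interval 1.46 to 1.51), just inside 1.5-fold. XRCC5 was 1.37-fold lower (95% interval 1.34 to 1.39), and PRKDC had a ratio of 1.14 (95% interval 1.12 to 1.16).

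Mismatch repair genes were more scattered than the members, with an SD of log2 fold changes of 1.30 over 7 genes against 0.58 over 35. They were not more scattered than genes at large. The SD was 1.58 over all 18563 genes and 1.35 over the 9603 protein-coding genes with at least 418 reads. MLH3 had 230 reads in parental and 1072 in KO cells, a ratio of 4.55 (95% interval 3.94 to 5.27). MSH6, which helps to find mismatches, had 22111 and 7387 reads and was 3.06-fold lower (95% interval 2.98 to 3.15). PMS2, which acts after a mismatch has been found, had 2025 and 954 reads and was 2.17-fold lower (95% interval 2.01 to 2.35).

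Many of the 35 genes are transcribed in S phase, so proliferation genes and their regulators were set beside them. Of 24 proliferation genes, 21 (87.5%) were within 1.5-fold, where 44.1% of all genes were, and the median log2 fold change was -0.03. MKI67 had 9126 and 12488 reads and PCNA 12093 and 16067, whereas CCNB1 had 16026 and 9729 and PLK1 1192 and 679. CCNE2, a cyclin of S phase entry, had 1232 and 3956 reads, 3.14 times the parental level (95% interval 2.94 to 3.35). Of the 22 E2F, DREAM and CDK12 regulators, 4 (18.2%) were past 1.5-fold higher and 3 (13.6%) lower, against 28.0% of all genes each way. E2F5 had 1701 reads in parental and 247 in KO cells, 7.05-fold lower (95% interval 6.17 to 8.09), and the tumour suppressor RB1 had 1512 and 475, 3.26-fold lower (95% interval 2.94 to 3.62). CDK12, a kinase needed for full transcription of long repair genes, had 4831 and 3595 reads, 1.38-fold lower. The part of these regulators in the values of the members was not tested.

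**Figure D5:**
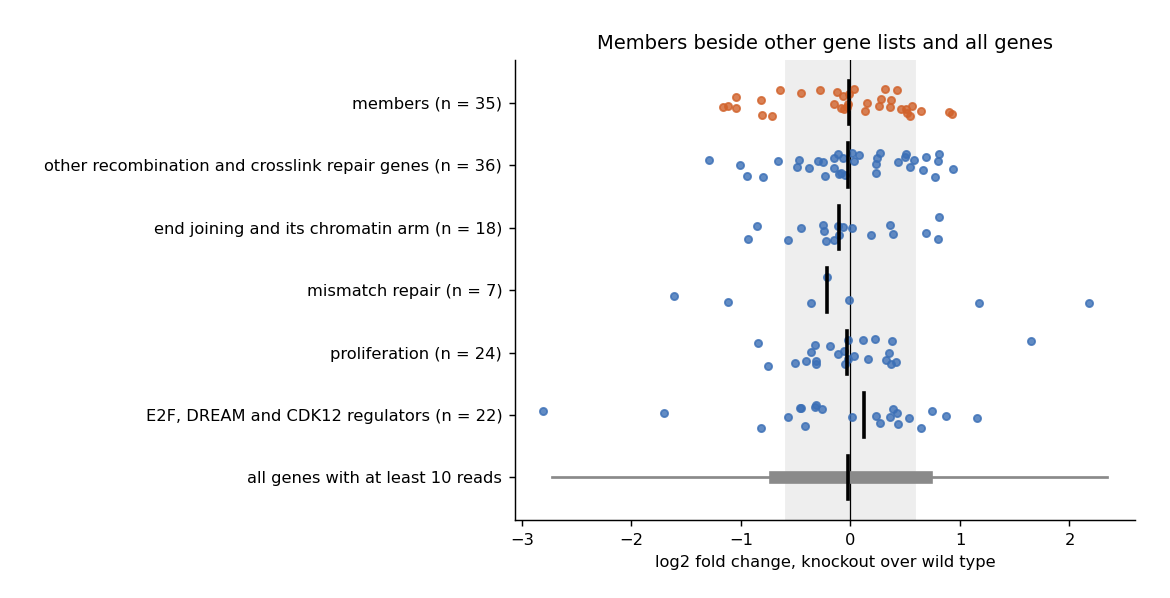
Each point is the log2 fold change (KO over parental) of 1 gene, orange for the 35 members and blue for 5 other lists, with black lines at the medians and a grey band for 1.5-fold. The lowest row gives all genes with at least 10 reads, a thick bar from the 25th to the 75th percentile (-0.69 to 0.69) and a thin line from the 5th to the 95th (-2.73 to 2.34), and the members stay between -1.16 and 0.93.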

How the data were processed

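A1847 RNA was sequenced in 1 library each for parental control and CARM1 KO cells. The authors aligned reads to hg19 with bowtie2 and deposited RSEM estimated counts per Ensembl gene as whole numbers, without normalization. The RSEM version is 1.2.3 per the labels and another in the paper's methods, and the Ensembl release and strand setting are not given in the sources used here. The deposited gene counts came to 30741953 in parental and 32300391 in KO cells, which is not the full sequencing depth.

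Identifiers were named from GENCODE 44 lifted to GRCh37, which matched 55501 of 57736, and the 2235 others held 3.48% of reads in each library. Counts were scaled by TMM in edgeR 4.0.16 (R 4.3.3), fold changes are KO over parental, and log2 values carry a prior count of 2. Genes needed at least 10 reads in both libraries together. Exact binomial intervals at the 95% level came from scipy 1.17.1. As no spread can be estimated from 1 library per group, no test was run and genes are described by fold changes past 1.5 and 3. The steps were tested on simulated data. All 35 members are named, with CARM1, genes that overlap or flank a member and the most changed of each companion list, and further genes of these lists were named after their values were seen. The members and lists were chosen with earlier results of these data known. Alternatives were scaling by the upper quartile, by DESeq2 1.42.0 size factors or by library size alone, other minimums of reads, another prior count and other numbers of flanking genes.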

Additional observations from a re-analysis of the deposited data

How the results depend on the processing

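Among all genes, the count past 1.5-fold lower went from 5193 to 8922 with at least 1 read in both libraries together in place of 10, and the count past 3-fold lower went from 1935 to 1187 with at least 50 reads, as the number of genes with few reads changes with the minimum. The other 79 comparisons of counts and medians, and the 140 comparisons of single members, moved by at most 1.5 times or by less than counting error. With DESeq2 size factors, FANCA joined the genes past 1.5-fold, so that 4 members were higher. BLM, CHEK1, RAD54L and RBBP8, whose intervals span no difference, changed sign under other settings, which shifted member values by at most 0.04 on the log2 scale. Requiring the whole counting interval beyond 1.5-fold, an alternative chosen after seeing the data, left 2 members higher and 6 lower. No paired analysis was possible because each group holds 1 library, which also kept any library from being omitted.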

Other observations

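Other repair pathways were described with lists chosen after the data had been seen. Of 20 base excision and single-strand break repair genes, 4 (20%) were past 1.5-fold higher in KO cells and 6 (30%) lower, near the 28.0% of all genes in each direction. NEIL3, a glycosylase that can also unhook crosslinks, had 350 reads in parental and 5 in KO cells, 71.7-fold lower (95% interval 30.4 to 222). LIG3, the ligase of this route, had 2020 and 863 reads, and its partner XRCC1 had 1185 and 682. PARP1 had 12283 and 12103 reads, 1.04-fold lower in KO cells, while PARP2 had 1421 and 2402, a ratio of 1.65 (95% interval 1.55 to 1.76).

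Of 12 nucleotide excision repair genes, 2 (16.7%) were past 1.5-fold higher and 2 (16.7%) lower, against 28.0% of all genes each way. DDB2, a damage sensor, had 594 reads in parental and 205 in KO cells, 2.97-fold lower (95% interval 2.53 to 3.49), and ERCC6, which acts at stalled polymerases, had 514 and 1132. Of 9 translesion synthesis and template switching genes, 2 (22.2%) were past 1.5-fold higher and 1 (11.1%) lower, against the same 28.0%. HLTF, which reverses forks, had 6604 and 13180 reads, RAD18, a ubiquitin ligase of this pathway, 2566 and 4678, and the polymerase POLI 668 and 275.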
